A study of Mus musculus with 8 samples.

Results

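Beta cells of the pancreatic islet keep a set of metabolic genes at low levels that most other cells use freely. The genes described here are 10 of these so-called disallowed genes: Ldha, Slc16a1, Hk1, Hk2, Acot7, Oat, Mgst1, Cat, Igfbp4 and Ndrg2. They were chosen by gene symbol, and 10 of 10 were found among the 14126 genes of the deposited table. Bulk RNA sequencing had been run on hand-picked islets of 7-week-old mice of the NOD/ShiLtJ strain, which is prone to autoimmune diabetes. The 4 libraries labelled WT came from mice with floxed Ern1 (IRE1αfl/fl), and the 4 labelled KO from mice given as IRE1αβ-/-, read here as loss of the endoplasmic reticulum stress sensor IRE1α from beta cells. Tamoxifen prepared at 10 mg/ml, injected to activate a Cre recombinase, is recorded for both groups. The labels name neither the promoter that drives Cre nor the floxed exons, and do not say whether the WT mice carried Cre.

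A beta cell senses glucose by burning it. Glycolysis runs in proportion to blood glucose, and nearly all of the pyruvate formed is oxidised in mitochondria to raise ATP and release insulin. Lactate dehydrogenase A would divert that pyruvate to lactate, the plasma membrane carrier encoded by Slc16a1 would let lactate and pyruvate from the blood start secretion, and hexokinases of high affinity would keep glycolysis running at low glucose.

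The libraries differed in ways that bear on these genes. Ern1, the targeted gene, had values of 5549, 5164, 4622 and 4500 in WT libraries 1 to 4 and of 7223, 7390, 6922 and 7216 in KO libraries 1 to 4. Its total covers all exons and was called higher in the libraries labelled KO (log2 estimate 0.54, SE 0.08, limma-trend adjusted p = 0.00234). This total therefore does not check the labels, and every direction below rests on them. Libraries 1 and 2 of both groups stood apart from libraries 3 and 4. The summed value of 11 immediate early genes was 6487 to 20306 in the former and 140164 to 296602 in the latter. Summed markers of alpha cells lay between 404531 and 1045247 in WT and between 1923783 and 2627035 in KO libraries (7 of 8 markers higher in KO), and those of beta cells between 5369690 and 6009868 in WT and 2547831 and 3495489 in KO (7 of 10 lower). Acinar sums were 25369 to 267112 against 141794 to 417629 (2 of 12 higher, 1 lower), ductal sums 11647 to 24951 against 19543 to 41181 (2 of 9 higher) and stellate cell and fibroblast sums 13587 to 21096 against 20852 to 35072 (1 of 10 higher). By the same test 11.1% of all genes were called higher and 9.81% lower. No measured marker on these 5 lists was at 0 in any library. The part of these markers in the results below was not tested. Fits with the acinar or the stellate and fibroblast level as a covariate are given below. Both lists themselves differed between the groups (median log2 fold changes of 1.62 and 1.19), so these fits cannot separate marker level from genotype. No alpha or beta cell level was fitted. In whole islets fewer cells of a type and less RNA per cell cannot be told apart.

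Of the 10 genes 6 rose in libraries labelled KO: Igfbp4, Acot7, Hk1, Oat, Ldha and Cat. None fell, and Mgst1, Ndrg2, Slc16a1 and Hk2 did not pass (limma-trend over 14121 genes, adjusted p under 0.05). Across all genes tested 11.1% were called higher and 9.81% lower. The median log2 fold change of the 10 genes was 0.84, against -0.000822 over all genes tested. For 7 genes every KO library lay above every WT library, which was the case for 13.6% of all genes. By the authors' deposited table, higher levels were called for 8 of the 10 at a false discovery rate (FDR) under 0.05, against 16.2% of its genes. The genes were chosen with earlier results of these data known, so these counts describe them and no test of the set was made.

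**Figure D1:**
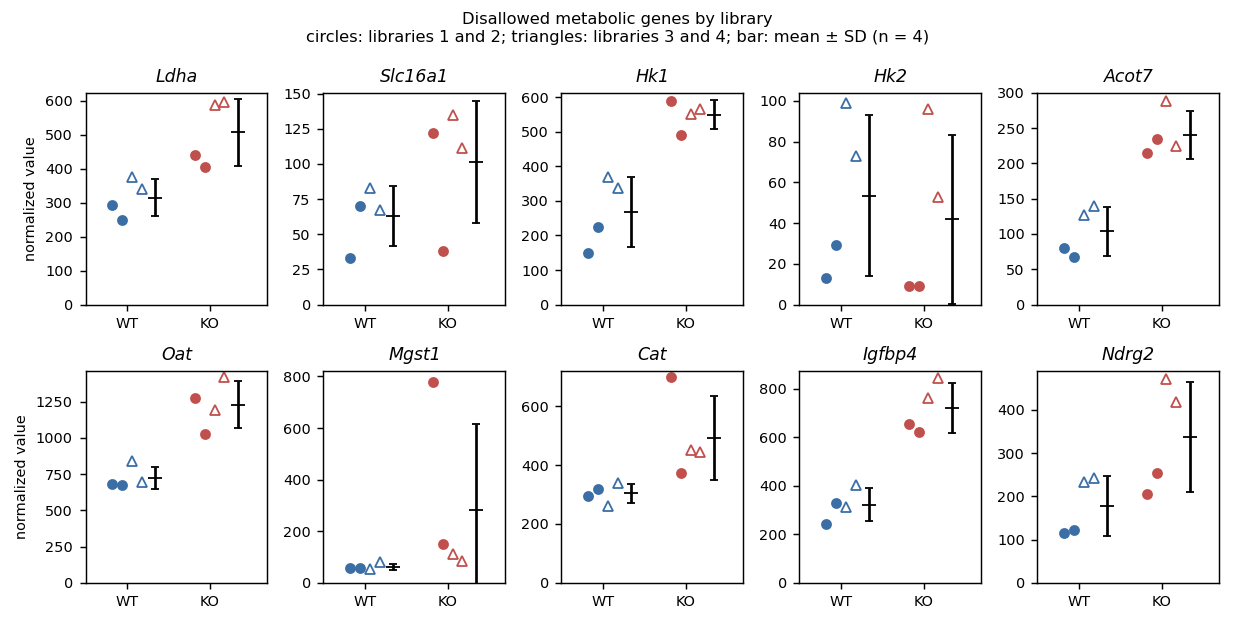
Normalized value (vertical axis, from 0) of the 10 genes in each of 4 WT and 4 KO libraries, with circles for libraries 1 and 2, triangles for libraries 3 and 4, and bars for the mean and SD. Groups did not overlap for 7 genes, Mgst1 reached 780 in 1 KO library (its lower SD bar is clipped at 0), and Hk2 followed the library number more than the group.

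**Figure D2:**
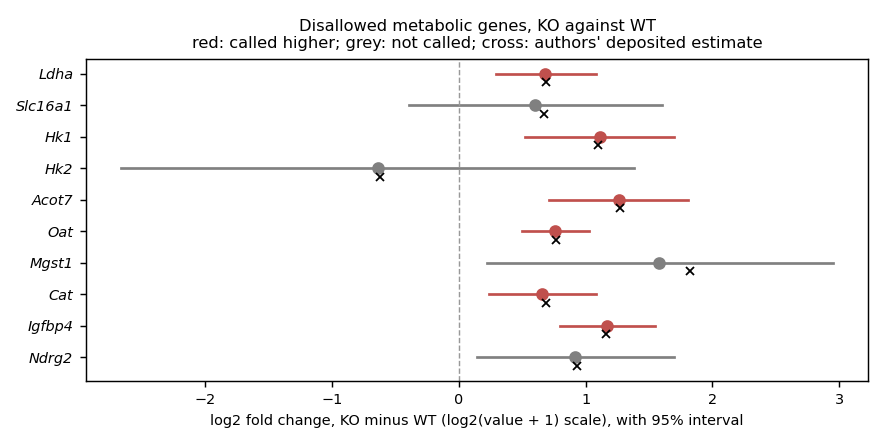
Log2 fold change of each gene, KO minus WT, with its 95% interval from limma-trend (red called higher, grey not called) and the estimate in the authors' deposited table as a cross. The intervals of 8 genes lie above 0, though for Mgst1 and Ndrg2 the adjusted p missed the threshold, and those of Slc16a1 and Hk2 span 0.

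The genes were a low-abundance group in control islets. Per kilobase of merged exons, 9 of 10 lay below the median of 14109 genes in WT libraries. In libraries labelled KO, 5 of 10 did, and levels ran from 6.99 ± 6.98 for Hk2 to 521 ± 69.8 for Oat. The lowest in WT was Hk2, at 8.96 ± 6.62 per kilobase (SD, n = 4) and the percentile 5.05. It was followed by Slc16a1 at 14.3 ± 4.82, with overlapping spreads, then by Mgst1 at 30.4 ± 5.94 and Hk1 at 31.5 ± 11.9, which did not differ beyond their spread either. Acot7 (48.7 ± 16.4), Ndrg2 (52.4 ± 20.4), Igfbp4 (72.9 ± 15.2), Ldha (95.0 ± 16.6) and Cat (116 ± 12.7) followed in that order, with neighbouring spreads that overlapped. Oat stood above them at 306 ± 33.0, the percentile 73.2. Merged exon length counts every annotated exon, so genes with many isoforms, such as Hk1 with 8532 bases, are placed too low.

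Ldha encodes the muscle-type subunit of lactate dehydrogenase, which turns pyruvate into lactate (ENSMUSG00000063229, GRCm38 chromosome 7, 46841475 to 46855627, plus strand, protein coding). It read 292, 250, 376 and 340 in WT libraries 1 to 4 and 440, 406, 588 and 595 in KO libraries 1 to 4. Every KO library was above every WT library, and in each group libraries 3 and 4 were above libraries 1 and 2. From a mean of 314 ± 55.1 to one of 507 ± 98.3 it rose by 0.68 on the log2 scale (SE 0.17, limma-trend adjusted p = 0.0233). Leaving out WT replicate 1, WT replicate 2, KO replicate 3 or KO replicate 4 ended the call (adjusted p from 0.057 to 0.0658). It also ended with the acinar (0.44, adjusted p = 0.143) or the stellate and fibroblast marker level as a covariate (0.42, adjusted p = 0.207). The annotation names 2 Ldha pseudogenes, neither in the table, so the division of reads from near-identical copies is uncertain.

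Ldhb, the heart-type subunit, which favours the reverse reaction, did not follow Ldha. It was at 206, 244, 217 and 209 in WT and at 187, 130, 248 and 156 in KO libraries (log2 estimate -0.32 ± 0.19, adjusted p = 0.281). Ldha therefore took 40.2%, 32.7%, 45.1% and 43.6% of the per-kilobase value of both genes in WT libraries 1 to 4. In KO libraries 1 to 4 it took 52.7%, 59.7%, 52.9% and 64.4%. The means were 40.4% ± 5.52 and 57.4% ± 5.66, a difference of 17.1 percentage points (exact two-sided permutation p = 0.0286, the smallest that 4 against 4 can give, adjusted p = 0.0381 over 4 isozyme shares computed, of which this one is reported). Paired by replicate number, the exact sign-flip test gave p = 0.125, the smallest that 4 pairs can give (adjusted p = 0.167), so that design could not pass. Within libraries 1 and 2 the difference was 19.8 points and within libraries 3 and 4 14.3. The level of these shares depends on merged exon length, 3310 bases for Ldha and 1570 for Ldhb. Undivided by length, the WT mean of Ldha (314) was above that of Ldhb (219). For Ldhd, which encodes an enzyme that oxidises D-lactate, the log2 estimate of -0.35 ± 0.14 did not pass (adjusted p = 0.114).

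**Figure D3:**
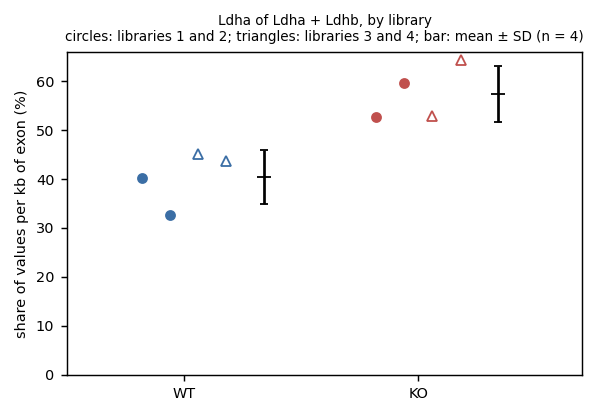
Share of Ldha in the summed per-kilobase value of Ldha and Ldhb, in percent (vertical axis, from 0), for each WT and KO library, with circles for libraries 1 and 2, triangles for libraries 3 and 4, and bars for the mean and SD. The KO libraries, at 52.7% to 64.4%, lay above all WT libraries, at 32.7% to 45.1%.

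Slc16a1 encodes the monocarboxylate transporter MCT1 (ENSMUSG00000032902, chromosome 3, 104638668 to 104658462, plus strand). It was at 33, 70, 83 and 67 in WT libraries and at 122, 38, 135 and 111 in KO libraries. KO library 2 lay inside the WT range and the other 3 KO libraries above it. Its log2 estimate was 0.60 ± 0.44, with a 95% interval from -0.39 to 1.60 (adjusted p = 0.373), so neither no change nor a rise of the size of Ldha's lies outside it. Leaving out 1 library gave estimates from 0.32 (without WT replicate 1, adjusted p = 0.645) to 1.02 (without KO replicate 2, adjusted p = 0.0639). With the stellate and fibroblast level as a covariate the sign turned (-0.17, adjusted p = 0.841). Among 20 measured genes of lactate and pyruvate handling 6 rose, 2 fell and 12 did not pass, where 11.1% of all genes tested rose and 9.81% fell. The median log2 fold change of the 20 was -0.03. Sister carriers were among the rises: Slc16a7, encoding MCT2, went from 140.5 ± 20.6 to 292 ± 46.0 (1.05 ± 0.16, adjusted p = 0.00247) and Slc16a6 from 354 ± 50.5 to 691 ± 43.0 (0.97 ± 0.11, adjusted p = 7.31e-04). Pdk4, a kinase that shuts off pyruvate dehydrogenase, rose by 1.45 on the log2 scale. Pcx, encoding pyruvate carboxylase, which feeds pyruvate into the mitochondrial cycle of beta cells, fell by 1.64. The other gene called lower was Mpc1, named after its value was seen, which encodes part of the mitochondrial pyruvate carrier (-0.34, adjusted p = 0.0264). Its call rested on single libraries, as leaving out WT replicate 1, WT replicate 3, KO replicate 1 or KO replicate 2 left 1 gene called lower.

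Hk1 encodes hexokinase I, of high affinity for glucose and bound to mitochondria (ENSMUSG00000037012, chromosome 10, 62268855 to 62379908, minus strand). Its values were 148, 224, 368 and 336 in WT and 588, 491, 553 and 566 in KO libraries. The KO libraries lay close together and above all WT libraries, among which libraries 3 and 4 were higher. From 269 ± 102 the mean rose to 549.5 ± 41.6, by 1.11 ± 0.26 on the log2 scale (adjusted p = 0.017). This was 1.56 within libraries 1 and 2 and 0.67 within libraries 3 and 4. The call ended with the acinar (0.78, adjusted p = 0.105) or the stellate and fibroblast level as a covariate (0.60, adjusted p = 0.159). An annotated antisense gene, Hk1os, overlaps exons of Hk1 and is not in the table. The strandedness of the library kit is not given in the sources used here, so its reads cannot be told apart from those of Hk1.

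Hk2 encodes hexokinase II, the inducible isozyme of muscle and many tumours (ENSMUSG00000000628, chromosome 6, 82725025 to 82774454, minus strand). It was at 13, 29, 99 and 73 in WT libraries and at 9, 9, 96 and 53 in KO libraries. Libraries 1 and 2 of either group were below 30 and libraries 3 and 4 above 50, while each KO library was below the WT library of the same number. Between groups the log2 estimate was -0.64 ± 0.89, with a 95% interval from -2.66 to 1.38 (adjusted p = 0.662, and 0.192 with the replicate block). With the stellate and fibroblast level as a covariate it was -2.74 (adjusted p = 0.034). Between libraries 3 and 4 and libraries 1 and 2 the log2 difference was 2.46 ± 0.35 (adjusted p = 0.00166).

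Acot7 encodes a thioesterase that splits long-chain acyl-CoA into fatty acid and coenzyme A and is otherwise abundant in brain (ENSMUSG00000028937, chromosome 4, 152178134 to 152271855, plus strand). It read 80, 68, 127 and 139 in WT libraries and 214, 234, 289 and 224 in KO libraries. The lowest KO library was well above the highest WT library. Its mean rose from 104 ± 34.8 to 240 ± 33.5, by 1.26 ± 0.24 in log2 (adjusted p = 0.00699). The call ended with the stellate and fibroblast level as a covariate (0.91, adjusted p = 0.0781). Its relatives did not move as one. Of 9 other thioesterase genes measured 1 rose and 3 fell, where 11.1% of all genes tested rose and 9.81% fell. Those that fell were Them6 (-1.01 ± 0.20), Acot11 (-0.79 ± 0.11) and Acot13 (-0.71 ± 0.13). The gene that rose, Acot1, had means of 29.0 ± 5.10 and 67.5 ± 24.7, and its call ended on leaving out any single library other than KO replicate 4 (adjusted p from 0.063 to 0.108).

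Oat encodes ornithine aminotransferase, a mitochondrial enzyme that joins ornithine to glutamate and proline (ENSMUSG00000030934, chromosome 7, 132557478 to 132576398, minus strand). Its values were 680, 675, 839 and 698 in WT and 1277, 1029, 1191 and 1423 in KO libraries. It was the most abundant of the 10 genes, and its groups were separated by a wide gap. Oat rose by 0.76 ± 0.12 in log2 (adjusted p = 0.00258), with 0.76 within libraries 1 and 2 and 0.77 within libraries 3 and 4. Leaving out any single library kept it between 0.69 and 0.84. Among 19 measured genes of ornithine, proline and glutamate metabolism 4 rose, 3 fell and 12 did not pass. Over all genes tested 11.1% rose and 9.81% fell. Arg1, encoding the arginase that makes ornithine, rose from 904 ± 67.5 to 1892 ± 724 (1.00 ± 0.22, adjusted p = 0.013), and Pycr1, of proline synthesis, by 0.68.

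Mgst1 encodes a membrane-bound glutathione transferase that detoxifies lipid peroxides (ENSMUSG00000008540, chromosome 6, 138140316 to 138156755, plus strand). It was at 57, 56, 53 and 79 in WT and at 780, 151, 112 and 85 in KO libraries. The groups did not overlap, but KO library 1 was far above the other 3, and KO library 4 was barely above the highest WT library. The log2 estimate was 1.58 ± 0.60 (adjusted p = 0.0955) and 0.89 without KO replicate 1 (adjusted p = 0.0529). It passed in a fit with a term for library set (adjusted p = 0.0478) and in libraries 1 and 2 alone (2.58, adjusted p = 0.0363), but not in libraries 3 and 4 alone (0.58, adjusted p = 0.18). The authors' deposited table gave 1.82 with an FDR of 0.00283. The ductal marker Krt19, named after its values were seen, was at 46, 80, 47 and 76 in WT and at 1673, 216, 106 and 54 in KO libraries, so KO library 1 stood out for both genes. Not all ductal markers did so. Among KO libraries Krt8 and Krt18 were highest in library 3 (7176 and 5672, against 6870 and 5602 in library 1), and the others in library 1. The part of duct cells in the Mgst1 values was not tested.

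Cat encodes catalase, the peroxisomal enzyme that breaks down hydrogen peroxide and is scarce in beta cells (ENSMUSG00000027187, chromosome 2, 103453849 to 103485160, minus strand). Its values were 296, 319, 262 and 339 in WT and 699, 374, 453 and 446 in KO libraries. KO library 1 was again the highest, and KO library 2 was close to the highest WT library. Cat rose by 0.66 ± 0.19 in log2 (adjusted p = 0.0347), and by 0.48 without KO replicate 1 (adjusted p = 0.0446). That call was lost on leaving out WT replicate 1, 2 or 3 or else KO replicate 3 or 4 (estimates of 0.59 to 0.70, adjusted p from 0.0633 to 0.0836). It was also lost in libraries 1 and 2 alone (0.73, adjusted p = 0.103) and with the stellate and fibroblast level as a covariate (0.69, adjusted p = 0.119), where the estimates were no smaller than 0.66. Among 31 measured peroxide and glutathione genes 5 rose, 1 fell and 25 did not pass, where 11.1% of all genes tested rose and 9.81% fell. The median log2 fold change of the 31 was 0.00. Leaving out either of WT replicates 1 and 2, or KO replicate 4, left 3 that rose. Gpx3, the secreted glutathione peroxidase, rose from 5884 ± 2189 to 17484 ± 1964 (1.64 ± 0.23, adjusted p = 0.00181), and Gpx2 by 1.00. Gsta4, a glutathione transferase gene (1.37 ± 0.41), and Sod3, the extracellular superoxide dismutase gene (1.30 ± 0.34), were called with adjusted p = 0.0455 and 0.0279. Leaving out WT replicate 1, 2 or 3 or KO replicate 1 or 4 ended both calls. That of Gsta4 also ended without WT replicate 4 or KO replicate 2 (adjusted p from 0.0522 to 0.0999 over these 7), and that of Sod3 without KO replicate 3 (0.0612 to 0.0766 over these 6).

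Igfbp4 encodes a secreted protein that binds insulin-like growth factors and holds them from their receptor (ENSMUSG00000017493, chromosome 11, 99041244 to 99054392, plus strand). It was at 241, 328, 314 and 405 in WT and at 655, 621, 764 and 844 in KO libraries. The lowest KO library was far above the highest WT library. Igfbp4 had the smallest adjusted p of the 10 genes, with means of 322 ± 67.2 and 721 ± 102 and a rise of 1.17 ± 0.17 in log2 (adjusted p = 0.00172). Within libraries 1 and 2 the rise was 1.18 and within libraries 3 and 4 1.17, and with Oat it was 1 of 2 genes whose call held in 23 of 23 alternative fits. Other genes around these growth factors were also counted. Of 13 measured, 4 rose and 2 fell, where 11.1% of all genes tested rose and 9.81% fell. The median log2 fold change of the 13 was 0.43, and 2 rose without WT replicate 2, KO replicate 3 or KO replicate 4. Pappa2, a protease that frees the factors from binding proteins other than IGFBP4, rose from 11523 ± 1856 to 62400 ± 16000 (2.42 ± 0.18, adjusted p = 9.69e-05), and Igfbp5, encoding a related binding protein, by 1.51. Igf1 rose by 2.17 from 49.2 ± 32.2, a call that ended without WT replicate 2 or KO replicate 1, 3 or 4 (adjusted p from 0.0552 to 0.0718). Igfals, encoding a subunit of the circulating complex, fell by 1.60.

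Ndrg2 encodes a member of the N-myc downstream regulated family that is widespread in brain and muscle (ENSMUSG00000004558, chromosome 14, 51905271 to 51914158, minus strand). Its values were 115, 121, 233 and 243 in WT and 205, 253, 472 and 419 in KO libraries. Groups overlapped, libraries 3 and 4 were higher than libraries 1 and 2 in both, and each KO library was above the WT library of the same number. Its log2 estimate of 0.92 ± 0.34 did not pass (adjusted p = 0.0906). With the replicate block it did (adjusted p = 0.00334), as it did within libraries 1 and 2 (0.94, adjusted p = 0.0195) and within libraries 3 and 4 (0.90, adjusted p = 0.0052). The estimate was 0.35 when acinar markers were the covariate (adjusted p = 0.488) and 0.15 when those of stellate cells and fibroblasts were (adjusted p = 0.759). In its family Ndrg4 rose from 735 ± 160 to 1266 ± 123 (0.80 ± 0.15, adjusted p = 0.00644). Ndrg1 (-0.24 ± 0.15, adjusted p = 0.282) and Ndrg3 (-0.17 ± 0.09, adjusted p = 0.185) did not pass.

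The split between library numbers reached several of these genes. Ldha, Hk2 and Ndrg2 were higher in libraries 3 and 4 than in libraries 1 and 2 with the group in the model (3 of 10 genes, against 9.38% of all genes), with log2 differences of 0.44, 2.46 and 0.98. None was lower, against 6.06% of all genes. A KO to WT difference that changed between the sets was called for none of the 10 genes (0 of 10 by the interaction term of limma-trend at an adjusted p under 0.05, against 0.0991% of all genes). So few calls over all genes do not show that the differences were equal. The unadjusted p was under 0.05 for 3 of 10, Hk1, Acot7 and Mgst1, against 18.8% of all genes. All 3 had the larger KO to WT difference in libraries 1 and 2.

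**Figure D4:**
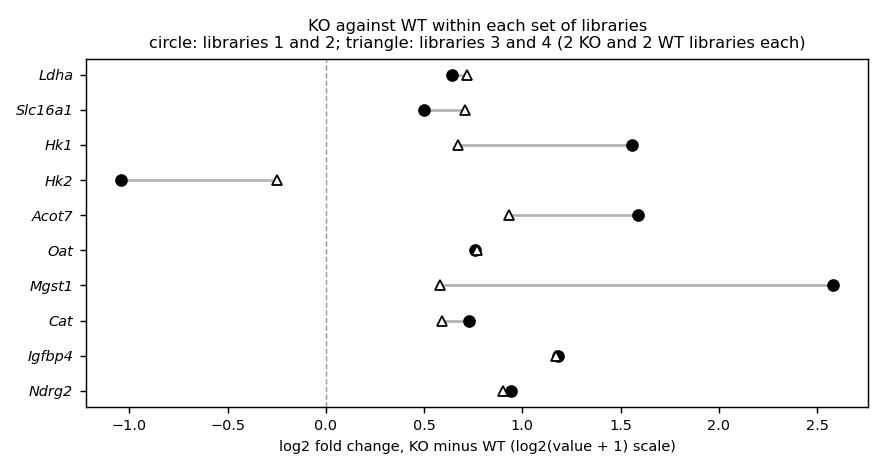
Log2 fold change, KO minus WT, of the 10 genes in libraries 1 and 2 alone (circles) and in libraries 3 and 4 alone (triangles), from 2 WT and 2 KO libraries each. The estimates lie side by side for Oat (0.76 and 0.77) and Igfbp4 (1.18 and 1.17) and furthest apart for Mgst1 (2.58 and 0.58).

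Beyond these 10, 22 other genes that surveys of mouse tissues have called disallowed in islets or beta cells were measured. Of them 10 rose, 1 (Dapp1) fell and 11 did not pass, where 11.1% of all genes tested rose and 9.81% fell. The median log2 fold change of the 22 was 0.80. The count of rises was 17 in the authors' deposited table, which called 16.2% of all its genes higher. It was 6 on leaving out WT replicate 1, KO replicate 1 or KO replicate 4. With the acinar level as a covariate 6 rose, and with that of stellate cells and fibroblasts, a list that shares Pdgfra, 2 rose. Calls fell over all genes too, with 1094 and 814 higher in these 2 fits, against 1562 without a covariate. Bgn, encoding the matrix proteoglycan biglycan, went from 345 ± 196 to 1239 ± 325 (1.98 ± 0.39 in log2, adjusted p = 0.00824). Nfib, a transcription factor gene, rose by 1.13 ± 0.24. Tgm2, encoding tissue transglutaminase (1.32 ± 0.36, adjusted p = 0.0296), lost its call on leaving out either of WT replicates 1 and 2 or any of KO replicates 1, 2 and 4 (adjusted p from 0.0508 to 0.0778). Tns1, encoding a focal adhesion protein (1.05 ± 0.32, adjusted p = 0.0456), lost its call on leaving out any library other than WT replicate 2 (adjusted p from 0.0531 to 0.107) and with the replicate block (0.0541). Calls of this list also covered Cxcl12, Lmo4, Ndrg4, Parp3, Yap1 and Lrp1, with log2 rises between 0.74 (Cxcl12) and 1.03 (Lmo4).

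**Figure D5:**
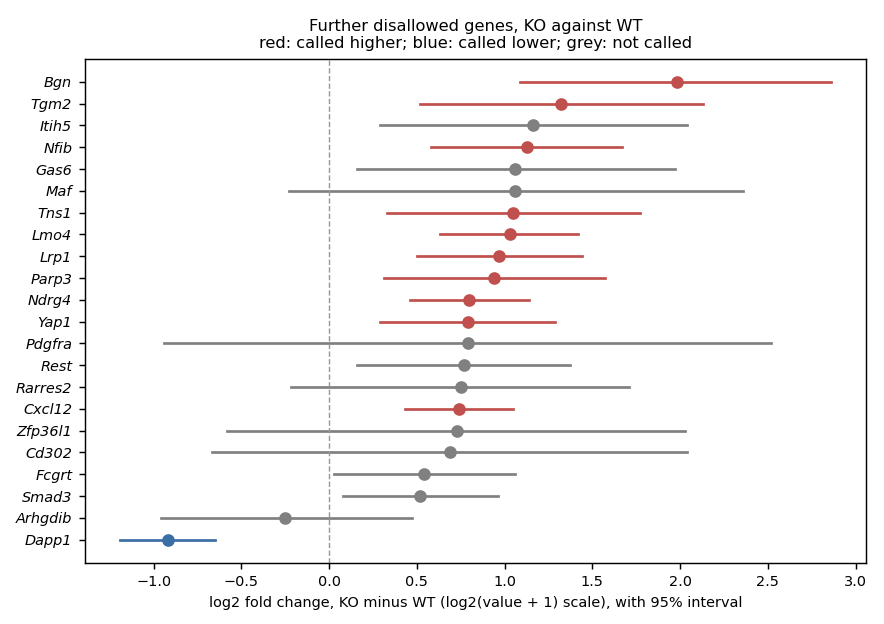
Log2 fold change, KO minus WT, with 95% interval, of 22 further disallowed genes in order of size (red called higher, blue called lower, grey not called). Of them 20 had estimates above 0, of which 10 were called, and Dapp1 was called lower.

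RNA levels were also compared for 23 measured genes of glycolysis and glucose uptake. Of these 3 rose, 5 fell and 15 did not pass, where 11.1% of all genes tested rose and 9.81% fell. The median log2 fold change of the 23 was -0.21, and 5 rose without WT replicate 4. Pfkfb3, whose enzyme makes an activator of phosphofructokinase, rose by 1.26 and Pfkp, the platelet-type phosphofructokinase gene, by 1.00. Slc2a2, encoding the beta cell glucose transporter GLUT2, fell by 1.46. Shuttles carry cytosolic reducing power into mitochondria, the route used in place of lactate dehydrogenase. Of 10 shuttle genes Gpd2 fell by 0.72 ± 0.13 (adjusted p = 0.00548) and the other 9 did not pass. This 1 fall in 10 was near the 9.81% of all genes. Without WT replicate 4, 3 of the 10 fell.

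The libraries' profiles of Ldha and Slc16a1 were compared with 11834 genes of a mean value of at least 100. Likeness was the root mean square difference over 8 libraries between log2 profiles centred on the WT mean. Nearest to Ldha were Ube2l6 (0.08), Stard5 (0.10) and Zwint (0.11). Nearest to Slc16a1 were Cxcl16 (0.33), Dpysl5 (0.33) and Gja1 (0.34), so Slc16a1 had no neighbour as close as those of Ldha. Slc16a1 had low values (means of 63.2 in WT and 102 in KO) that varied widely, from 38 to 135 in KO libraries. The part of this variation in its distances was not tested.

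Promoter sequences are shown for 4 genes, to set Ldha, Slc16a1 and Hk2, whose windows hold the core of the hypoxia response element, beside Igfbp4, which does not. Entries for 10 of 10 genes, with 15 start sites, were taken from RefSeq (GRCm38.p6, the C57BL/6J genome and not that of NOD/ShiLtJ), and the 250 bases before each start were searched on both strands. The core ACGTG was found for 3 of 10 genes, at 3 of their 15 starts, and in 16.6% of 32851 single promoters. The palindrome CACGTG, known as an E-box, contains that core on both strands. It was in the first Ldha window and that of Slc16a1, and in 6.02% of all promoters. Capitals mark ACGTG or its reverse complement in the first 3 sequences and TATAAA in the last:
Ldha, first start (chr7:46845554-46845803, plus strand): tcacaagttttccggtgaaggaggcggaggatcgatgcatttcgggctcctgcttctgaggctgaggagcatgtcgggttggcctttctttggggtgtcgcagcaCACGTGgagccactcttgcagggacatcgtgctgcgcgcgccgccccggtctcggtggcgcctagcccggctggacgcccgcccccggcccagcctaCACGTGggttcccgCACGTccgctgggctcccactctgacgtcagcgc
Slc16a1 (chr3:104638414-104638663, plus strand): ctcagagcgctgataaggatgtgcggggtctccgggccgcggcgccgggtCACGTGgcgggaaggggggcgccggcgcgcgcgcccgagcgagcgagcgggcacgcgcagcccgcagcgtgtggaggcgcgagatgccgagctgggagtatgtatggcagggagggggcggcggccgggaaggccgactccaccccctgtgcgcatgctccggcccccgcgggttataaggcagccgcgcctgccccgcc
Hk2 (chr6:82774455-82774704, minus strand): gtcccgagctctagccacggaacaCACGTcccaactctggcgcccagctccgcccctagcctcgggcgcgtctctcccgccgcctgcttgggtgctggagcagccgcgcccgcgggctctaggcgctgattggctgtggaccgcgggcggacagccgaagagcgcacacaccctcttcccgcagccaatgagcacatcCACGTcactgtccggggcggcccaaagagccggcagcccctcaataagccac
Igfbp4 (chr11:99040994-99041243, plus strand): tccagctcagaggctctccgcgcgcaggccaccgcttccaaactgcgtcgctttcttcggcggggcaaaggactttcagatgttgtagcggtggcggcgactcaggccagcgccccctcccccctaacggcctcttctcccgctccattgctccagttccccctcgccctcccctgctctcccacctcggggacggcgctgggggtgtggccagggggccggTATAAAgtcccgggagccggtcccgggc

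The first Ldha window held 3 stretches of the core and the second, not shown, held 0. That of Hk2 held 2 and that of Slc16a1 1. Of these 3 genes Ldha alone was called between groups, and Hk2 differed most between library sets. The motif TGACGTGG, an unfolded protein response element that overlaps the core, was in the Hk2 window and in 0.563% of all promoters. Igfbp4 and Ndrg2 had a TATAAA, found in 12.4% of promoters, and 7 of 10 genes had the GC box GGGCGG at 1 start or more, found in 32.7% of single promoters. The ratio of observed to expected CpG was above the median of all promoters (0.373) at 12 of 15 starts, being highest for Slc16a1 (1.03) and lowest for the first start of Hk1 (0.0652). These matches describe the letters of the windows only.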

How the data were processed

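The submitters' processing notes list bcl2fastq 2.20, STAR 2.5.3a, RSEM 1.2.31, edgeR 3.16.15 and the build GRCm38.p5, without settings that could be used here. In the deposited table, the values per library were whole numbers normalized by the authors, treated as a score in no fixed unit and not as raw counts, for 14126 genes. Their totals of 32024139 to 34858983 follow that normalization. Sequencing depth is therefore unknown, and precision comes from the variation among the 4 libraries of a group. The design text states 4 mice for each genotype, and libraries were taken as separate animals. The authors also deposited a log2 fold change, a log2 CPM, a likelihood ratio score, a p-value and an FDR per gene.

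Here, 14121 genes reaching 1 or more in 4 or more libraries were tested with limma-trend (limma 3.58.1, R 4.3.3) on log2(value + 1), adjusted by Benjamini-Hochberg and called under 0.05. This scale understates changes of low genes. The fit was tested on simulated data. Gene models and lengths came from GENCODE M21 (GRCm38), which held 14114 of the gene IDs. Alternatives changed the pseudocount, filter, scaling (library totals, TMM factors), block, set of libraries, trend and marker covariates, and left out each library.

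The 10 genes, the lists and the tests were chosen with earlier results of these data known. Named were the 10 genes, Ern1, the other hexokinase, lactate dehydrogenase and NDRG genes, up to 4 called genes per list with the largest change, and the 3 profiles nearest to Ldha and to Slc16a1; exceptions are stated, and some named genes and shares are not reported here. Marker lists of delta, PP and epsilon cells (5 of 6 markers higher), endothelial cells (0 of 8), macrophages (1 of 9 higher), lymphocytes (1 of 6 lower), erythroid cells (0 of 5) and Schwann cells (0 of 6) were also counted. The shares over all genes tested were 11.1% higher and 9.81% lower.

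Same-numbered WT and KO libraries deviated together from their groups across 13080 genes (r of 0.329, 0.585, 0.666 and 0.383). Both groups share the split between library sets, and no r of differently numbered libraries is reported here. These values therefore cannot show that replicate numbers pair the libraries, and the replicate block is given as an alternative only. Genes are not independent replicates.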

Additional observations from a re-analysis of the deposited data

Results flagged for a closer look

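In 3 of 28 groups of 4 values checked (20 of single genes and 8 of shares), 1 library lay far from the rest by Dixon's gap test, where chance gives about 1 in 20 groups. Mgst1 was at 780 in KO replicate 1, against 151 for the next KO library. It was at 79 in WT replicate 4, against 57 for the next WT library. Oat was at 839 in WT replicate 3, against 698 for the next.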

How the results depend on the processing

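Of 23 alternatives, 11 called 6 of the 10 genes higher, as reported, and the others called 2 to 8, with 4 to 6 on leaving out 1 library (4 on leaving out either of WT replicates 1 and 2 or of KO replicates 3 and 4). With the replicate block 7 were called, Ndrg2 being added. That block also raised the share of all genes called higher, from 11.1% to 14.2%. The stellate and fibroblast marker level as a covariate, which itself differs between the groups, left 2 higher and 1 lower, and 814 higher and 665 lower genes in all. It turned Slc16a1 to -0.17, Cxcl16 to -0.26 and Gja1 to -0.08 on the log2 scale; the cause was not tested. A term for library set gave counts in which 2400 genes were higher and 2102 lower. Leaving out 1 library gave 1121 to 1684 higher and 863 (without WT replicate 2) to 1599 lower genes. Paired by replicate number (the block), the share of Ldha differed by the same 17.1 percentage points, and the exact sign-flip test gave the smallest p that 4 pairs allow (0.125, adjusted p = 0.167), which cannot pass. Among the other named genes the block ended the call of Tns1 and of no other. Scaling moved the median log2 fold change of all genes by under 0.05. Depth is unknown, and Hk2, Slc16a1 and Mgst1 had the lowest mean values in WT libraries.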

Other observations

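KO replicate 1 was the highest of the 4 KO libraries for 11 of the 22 further disallowed genes and for 3 of the 10 described first (Hk1, Mgst1 and Cat), while over all 14121 genes tested it was the highest for 28.0%. Its values were 1945 for Nfib, 2997 for Tns1 and 1385 for Tgm2, where the other KO libraries lay at 884 to 1002, 1259 to 1549 and 693 to 767. Its summed ductal marker value, 41181, was also the highest of the 8 libraries, and that sum was 19543 to 27732 in the other 3 KO libraries. That rank rested largely on Spp1, which made up 19589 of it, against 951 of the 24951 in WT replicate 3. Krt8 was highest in WT replicate 3 (12992, against 6870) and Krt18 in KO replicate 3 (5672, against 5602). The other ductal markers were highest in KO replicate 1. The part of duct cells in these values was not tested.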
